A study of Mus musculus with 6 samples.

Results

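Nr3c1, the gene of the glucocorticoid receptor, and 9 genes known as targets of that receptor were followed in RNA bound to tagged ribosomes of the mouse striatum after repeated morphine or saline. The 10 members, Fkbp5, Sgk1, Tsc22d3, Zbtb16, Plin4, Pdk4, Mt1, Mt2, Cdkn1a and Nr3c1, were chosen by name and matched by Ensembl identifier, and all 10 were found among the 18732 genes of the authors' deposited table. There were 3 morphine libraries and 3 saline libraries, and each pools the striata of 2 brains, collected 24 h after dosing ended. Morphine was given under the skin in rising doses of 20, 40, 60 and 100 mg/kg, with 2 injections a day for 5 days, and the other group received saline injections. Both groups carried Oprm1-Cre, which ties Cre recombinase to the mu opioid receptor gene, and RosaLSL-GFP-L10a, a ribosomal protein fused to GFP that Cre switches on. The sample labels write the genotype as Oprm1Cre/+;RosaLSL-GFP-L10a and the design text writes Oprm1Cre/Cre, and these were not reconciled. No age or sex of the mice was found in the labels. Because the tag depends on recombination, a cell keeps it after Cre is no longer made.

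The table holds, for each gene, a mean of counts divided by size factors over the libraries fitted, a log2 fold change, its standard error (SE) and a Wald p with its Benjamini-Hochberg adjusted p, all from the authors' DESeq2 fit. No values per library were analysed here. No level can therefore be given for morphine and saline separately, and the depth of the libraries is unknown. A positive log2 fold change is read as higher after morphine, because all 2036 genes of the sheet named for increases had positive values. The table does not say which group was the numerator or how many of the 6 libraries were fitted, so all directions rest on that reading. A gene was counted as higher or lower at an adjusted p below 0.05. Counts at an unadjusted p under 0.05 have no share over all tested genes beside them and are not read as results about a list. The 95% intervals given are normal intervals from the authors' SE.

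Glucocorticoids, corticosterone in the mouse, are released by the adrenal gland under stress and over the daily cycle. The receptor rests in the cytoplasm in a complex with HSP90, moves to the nucleus once it has bound the hormone, and acts there at DNA elements made of paired AGAACA letters. Fkbp5 encodes a co-chaperone that lowers the receptor's affinity for hormone, which makes its induction a negative feedback. Sgk1, Tsc22d3, Zbtb16, Plin4, Pdk4, Mt1, Mt2 and Cdkn1a are induced by glucocorticoids in one tissue or another, and several of them also answer to other signals, such as fasting for Pdk4, heavy metals for Mt1 and Mt2 and p53 for Cdkn1a. In brain, several of these genes are active in glia and vessel cells as well as in neurons.

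The 3 stretches printed below come from the RefSeq promoter table on GRCm38.p6, which held windows of 300 bases, 250 before and 50 after an annotated start, for 8 members. They were chosen because the estimates of Mt1 and Mt2, which lie side by side, fall on opposite sides of 0, and because a full receptor element was found in a window of Sgk1. Capitals in Mt2 (chr8:94172368-94172667, plus strand) and Mt1 (chr8:94178839-94179138, plus strand) mark the metal response core, searched as TGCGCNC and TGCACNC on both strands. Capitals in the Sgk1 stretch (chr10:21993671-21993745, plus strand) mark AGAACA and TGTTCT with 3 bases between them, searched on both strands.
Mt2: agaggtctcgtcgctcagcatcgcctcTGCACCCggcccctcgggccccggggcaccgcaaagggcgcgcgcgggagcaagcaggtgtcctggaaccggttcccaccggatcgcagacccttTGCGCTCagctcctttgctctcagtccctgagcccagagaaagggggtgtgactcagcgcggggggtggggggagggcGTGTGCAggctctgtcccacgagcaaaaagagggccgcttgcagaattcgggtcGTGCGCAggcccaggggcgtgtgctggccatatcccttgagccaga
Mt1: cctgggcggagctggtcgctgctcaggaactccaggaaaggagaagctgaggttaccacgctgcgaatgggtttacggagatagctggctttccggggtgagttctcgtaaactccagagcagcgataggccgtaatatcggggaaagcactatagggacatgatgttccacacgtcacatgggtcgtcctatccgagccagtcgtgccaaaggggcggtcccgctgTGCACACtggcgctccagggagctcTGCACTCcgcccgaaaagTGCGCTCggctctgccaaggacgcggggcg
Sgk1: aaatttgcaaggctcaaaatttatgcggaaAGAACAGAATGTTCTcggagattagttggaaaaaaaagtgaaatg

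The metal response core was found 4 times in the Mt2 window and 3 times in the Mt1 window. Of 32851 windows of this length, 25.7% held at least 1 such match and 1.97% held 3 or more. The full receptor element was found in 1 of the 16 windows of the members, the fifth of the 6 Sgk1 windows, and in 3 of the 32851 windows, or 0.00913%. A single AGAACA, on either strand and counted also within the full element, was found in 4 of the 16 windows, against 19% of all windows. The windows of Fkbp5, Plin4, Pdk4 and Cdkn1a held none of these letters, which says only that they are not in these windows. No table used here held a window for Zbtb16, and the sequence of Nr3c1 is not printed.

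**Figure D1:**
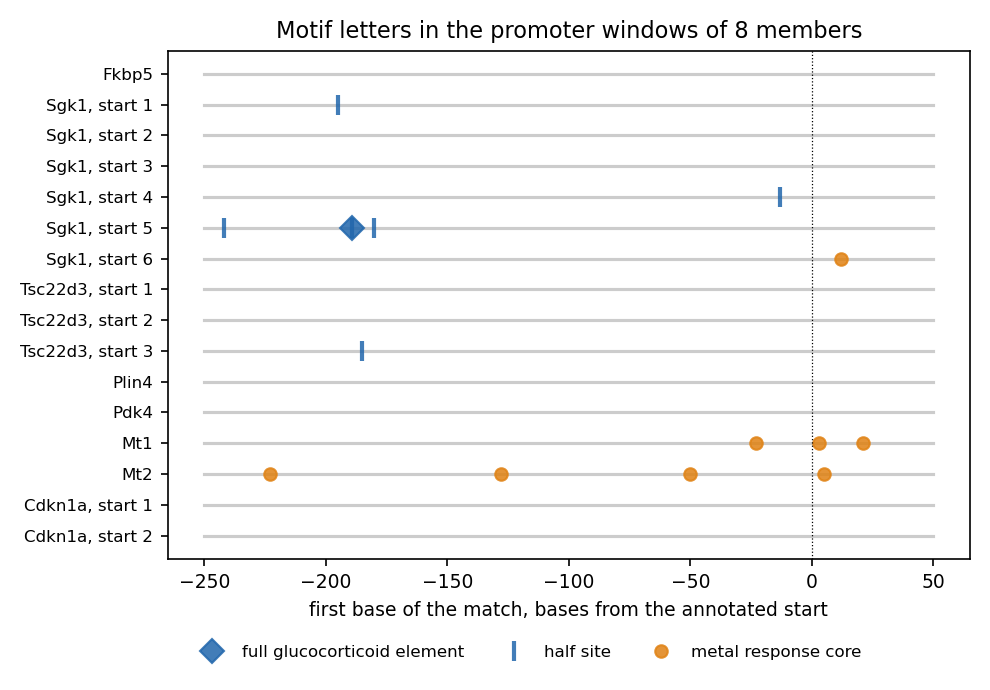
Positions of the searched letters in the 16 promoter windows of 8 members. The x axis gives the distance in bases from the annotated start, each grey line is 1 window from 250 bases before the start to 50 after it, diamonds mark the full receptor element, ticks a single AGAACA and circles the metal response core. The full element lies in 1 Sgk1 window, with 4 metal response cores in Mt2 and 3 in Mt1.

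Of the 10 members, 3 were higher after morphine and none was lower. Those that rose were Plin4, Pdk4 and Mt2, while Fkbp5, Sgk1, Tsc22d3, Zbtb16, Mt1, Cdkn1a and Nr3c1 did not pass the threshold. Over all 17279 tested genes of the authors' deposited table, 13.8% were called in either direction, 11.8% as higher and 2.01% as lower. Mt1 was the 1 member below 0 at an unadjusted p under 0.05 in the authors' deposited DESeq2 table. The median log2 fold change of the members was 0.05, against -0.01 over all tested genes. All 10 members encode proteins with no predicted signal or membrane segment by a hydropathy rule. That class matters for the comparison because the authors' deposited table put the median log2 fold change at 0.58 for the 3591 tested coding genes with such a segment and at -0.06 for the 9823 without one. Among the 9823 genes without a segment, 2.79% were higher and 1.42% lower. Where a call below is said to be lost within class, it was lost after the median of the gene's class was subtracted and the Wald p and its adjustment were computed again.

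**Figure D2:**
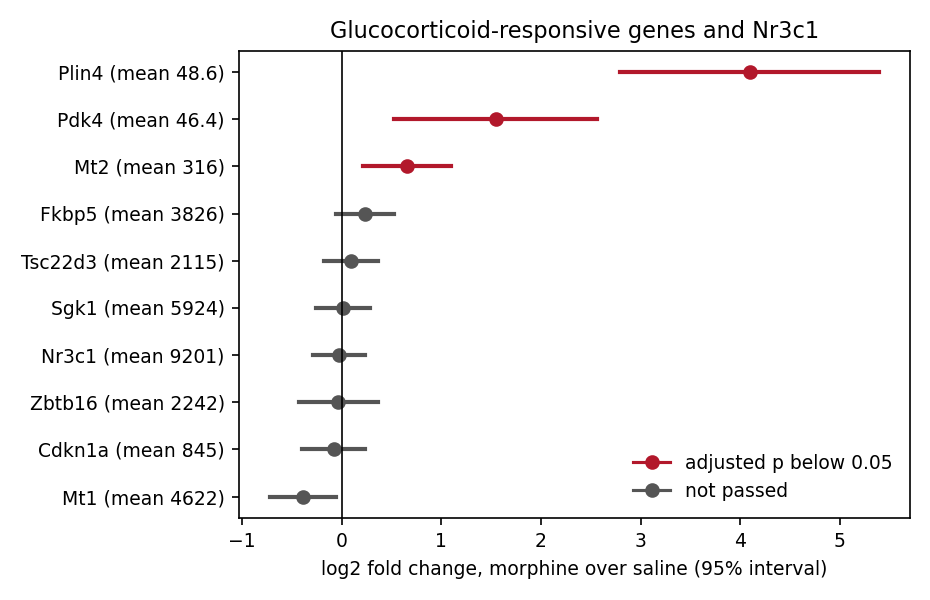
Log2 fold changes of the 10 members, morphine over saline, with 95% intervals from the authors' SE. The number after each name is the mean of normalised counts over the fitted libraries, and red marks an adjusted p below 0.05. Plin4, Pdk4 and Mt2 lie to the right of 0, and the intervals of 6 of the other 7 members include 0, Mt1 being the exception.

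The 3 members that rose were also the 3 with the lowest means. In the authors' deposited table Plin4 had a mean of 48.6, Pdk4 of 46.4 and Mt2 of 316 normalised counts, while the 7 members that did not pass had means from 845 to 9201. Low means come with wide errors in this table. The median SE was 0.61 among tested genes with a mean under 100 and 0.15 among genes with a mean of at least 100. Among tested genes with a mean under 100, 3.67% were called higher. A minimum mean of 100 leaves Plin4 and Pdk4 untested and 1 member called. Per kilobase of the principal transcript, the authors' deposited means placed Mt1 first at 8419 normalised counts per kb, then Sgk1 at 2412, Nr3c1 at 1430, Tsc22d3 at 1072 and Fkbp5 at 992. Mt2 followed at 619, Zbtb16 at 438 and Cdkn1a at 406, with Pdk4 at 13.3 and Plin4 at 8.45 per kb. The spread between libraries is not known, so it cannot be said which neighbours in this order differ. In ribosome-bound RNA taken from many cells at once, fewer cells of a type and less bound RNA per cell cannot be told apart, and these are not the only readings.

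**Figure D3:**
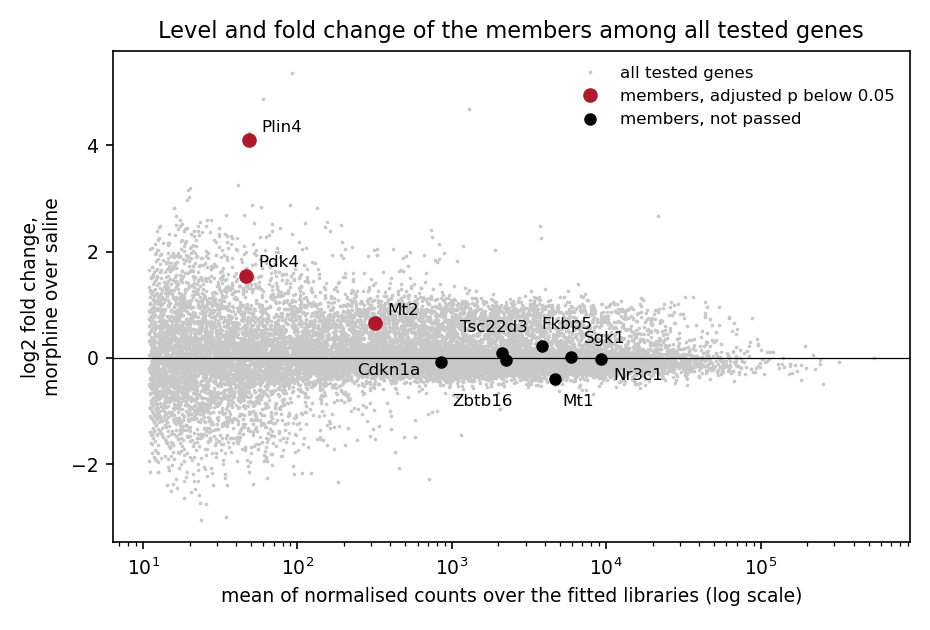
Log2 fold change, morphine over saline, against the mean of normalised counts on a log scale, for all tested genes in grey and the 10 members as large points. The 3 members that passed, in red, sit at means of 48.6, 46.4 and 316, to the left of the 7 that did not, in black.

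Plin4 (ENSMUSG00000002831, chromosome 17, 56100591 to 56109803, GRCm38, minus strand) encodes perilipin 4, a coat protein of lipid droplets that is best known from fat cells. The authors' deposited table gave it a log2 fold change of 4.10 (adjusted p = 6.13e-08, 95% interval 2.79 to 5.40, SE 0.66), which is 17.1-fold higher after morphine with an interval from 6.93-fold to 42.1-fold. Only 4 tested genes had a higher log2 fold change in the authors' deposited table, and these, named after their values were seen, were F5 at 5.36, Gm25395 at 4.87, the choroid plexus gene Ttr at 4.68 and Mfrp at 4.24. The SE of Plin4 was 1.09 times the median of tested genes with a mean under 100. How close Plin4 was to 0 in the saline libraries is not known, and a fold of this size depends on that level. Its annotated exons share 17 of 5777 bases with Hdgfl2 on the other strand, which the authors' deposited table gave -0.37 (SE 0.13).

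Of 9 tested perilipins and lipid droplet enzymes other than Plin4, 2 rose and none fell, where 11.8% of all tested genes were higher and 2.01% lower, so counts this small say nothing particular to the list. Within class 1 of the 2, Plin3, kept its call. Plin3, a perilipin made in most tissues, rose by 1.42 (adjusted p = 0.0156, SE 0.45) in the authors' deposited table at a mean of 56.6. Dgat2, which makes triglycerides, rose by 0.97 (adjusted p = 6.77e-09, SE 0.15) in the authors' deposited table at a mean of 3872, a call that was lost within class (0.39, adjusted p = 0.108). Plin2, the perilipin found on droplets of most cells, had a log2 fold change of 0.42 with an SE of 0.57 (adjusted p = 0.777) in the authors' deposited table.

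Pdk4 (ENSMUSG00000019577, chromosome 6, 5483351 to 5496309, GRCm38, minus strand) encodes a kinase of mitochondria that switches off pyruvate dehydrogenase and so spares glucose during fasting. It rose by 1.55 on the log2 scale (adjusted p = 0.0242, 95% interval 0.53 to 2.56, SE 0.52) in the authors' deposited table, or 2.92-fold with an interval from 1.44-fold to 5.91-fold. The other kinases of the family, the phosphatases that oppose them and the subunits of the enzyme complex gave no call among 10 tested genes, in DESeq2 also at an unadjusted p under 0.05 (0 genes). All 10 had values below 0, with a median of -0.18 and a range from -0.23 to -0.02 in the authors' deposited table. They have no predicted segment, and that class had a median of -0.06, with 2.79% higher and 1.42% lower. No call among 10 is therefore not a result about them, and their shared sign was not tested. Pdk1 stood at -0.12 (SE 0.13) with a mean of 3125 and Pdk2 at -0.20 (SE 0.14) with a mean of 5717 in the authors' deposited table. The 2 smallest p values of that list belonged to Dld at -0.23 (SE 0.13) and Pdp1 at -0.21 (SE 0.12) in the authors' deposited table.

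Mt1 and Mt2 encode metallothioneins, small cysteine-rich proteins that bind zinc and copper and are induced by metals and by glucocorticoids. They lie in the same orientation on chromosome 8 of GRCm38, Mt2 (ENSMUSG00000031762) from 94172664 to 94173568 and Mt1 (ENSMUSG00000031765) from 94179082 to 94180327, with 5513 bases between them. In the authors' deposited table Mt2 rose by 0.65 on the log2 scale (adjusted p = 0.0308, 95% interval 0.21 to 1.10, SE 0.23), or 1.57-fold with an interval from 1.16-fold to 2.14-fold. Mt1 stood at -0.39 in the authors' deposited table (adjusted p = 0.119, 95% interval -0.72 to -0.06, SE 0.17), which does not pass. The 2 estimates are 1.04 apart on the log2 scale and their 95% intervals do not overlap. This gap was seen in the values first and was not tested, since the 2 genes were measured in the same libraries and their covariance is not known. By the authors' deposited means per kilobase, the level of Mt1 was 13.6 times that of Mt2, a ratio that depends on how reads in the overlap described next were counted.

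The value of Mt2 is uncertain for another reason. Of the 588 annotated exon bases of Mt2, 432, or 73.5%, overlap Gm45774 on the opposite strand, and no label says whether the counting used strand. Gm45774 had a mean of 27.2 and a log2 fold change of 0.85 (adjusted p = 0.475, SE 0.61) in the authors' deposited table. The part of this overlap in the fold change of Mt2, in its mean and in its place per kilobase was not tested. Mt1 has no such overlap in the annotation. Mt1 and Mt2 are also close relatives, and reads that fit both could be split between them by the counter. Mt3, a further metallothionein gene, lies 18517 bases before Mt2 and stood at -0.27 (adjusted p = 0.216, SE 0.14) in the authors' deposited table. Mtf1, the factor that reads the metal response core, stood at 0.02 (adjusted p = 0.975, SE 0.14) in the authors' deposited table.

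Nr3c1 (ENSMUSG00000024431, chromosome 18, 39410545 to 39519421, GRCm38, minus strand) had the highest mean of the members, 9201 normalised counts, and a narrow interval around 0. Its log2 fold change was -0.03 (adjusted p = 0.951, 95% interval -0.29 to 0.23, SE 0.13) in the authors' deposited table, an interval that runs from 0.817-fold to 1.18-fold. With this SE, a change of 1.29-fold would have been needed to pass. Nr3c2, the mineralocorticoid receptor that binds the same hormone with higher affinity, stood at -0.05 (adjusted p = 0.918, SE 0.14) in the authors' deposited table. Of 5 tested genes that handle the steroid, H6pd, which supplies the cofactor of the enzyme that regenerates corticosterone, rose by 0.74 (adjusted p = 0.0161, SE 0.24) in the authors' deposited table. That call was lost within class (0.15, adjusted p = 0.894). Hsd11b1, the enzyme itself, stood at 1.01 (adjusted p = 0.140, SE 0.45) at a mean of 56.0 in the authors' deposited table, so it did not pass. Hsd11b1 was chosen after its value was seen.

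Fkbp5 (ENSMUSG00000024222, chromosome 17, 28399094 to 28517527, GRCm38, minus strand) had the highest value of the 7 members that did not pass. It stood at 0.23 (adjusted p = 0.392, 95% interval -0.06 to 0.52, SE 0.15) in the authors' deposited table, which allows a fold from 0.961 to 1.43. Other genes of the receptor's chaperone complex had values from -0.22 to 0.38. Of 14 tested chaperones and co-chaperones none passed, with 0 genes at an unadjusted p under 0.05 in DESeq2, and the list median was -0.09. The 14 have no predicted segment, a class with 2.79% higher and 1.42% lower, so no call is not a result about them. Hsp90aa1, a cytosolic HSP90 gene, stood at -0.19 (SE 0.12) and its partner Hsp90ab1 at -0.18 (SE 0.12) by the authors' deposited table. Fkbp4, which takes the place of the Fkbp5 product when the receptor binds hormone, stood at 0.02 (SE 0.13) in the authors' deposited table. The 2 smallest p values of the list were those of Hspa8 at -0.22 (SE 0.12) and Hsp90ab1 in the authors' deposited table. Among 12 tested members of the FKBP family, the 2 that rose encode proteins of the endoplasmic reticulum, Fkbp9 at 0.96 (adjusted p = 2.12e-06, SE 0.18) and Fkbp14 at 0.83 (adjusted p = 0.0491, SE 0.31) in the authors' deposited table. These 2 were the ones classed with a predicted segment, and both calls were lost within class, Fkbp9 at 0.37 (adjusted p = 0.272) and Fkbp14 at 0.24 (adjusted p = 0.865). The hydropathy rule is coarse, since Fkbp2, Fkbp7 and Fkbp10, which also encode proteins of the endoplasmic reticulum, were classed without one.

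Sgk1 (ENSMUSG00000019970, chromosome 10, 21882184 to 21999903, GRCm38, plus strand) encodes a kinase that keeps ion channels and transporters at the cell surface and holds the receptor element printed above in one of its windows. Its log2 fold change was 0.01 (adjusted p = 0.977, 95% interval -0.26 to 0.29, SE 0.14) in the authors' deposited table, or 0.837-fold to 1.22-fold. Of 8 tested relatives and targets of the kinase, 7 without a predicted segment, none passed, beside 2.79% higher and 1.42% lower in that class. An unadjusted p under 0.05 in DESeq2 was found for 1 of the 8. That was Ndrg1, a substrate of SGK1, at 0.42 (adjusted p = 0.0684, SE 0.16) in the authors' deposited table. Scnn1a, a subunit of the epithelial sodium channel, had the next smallest p, at 0.70 (adjusted p = 0.286, SE 0.39) in the authors' deposited table.

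Tsc22d3 (ENSMUSG00000031431, chromosome X, 140539528 to 140600659, GRCm38, minus strand) encodes GILZ, a leucine zipper protein that mediates anti-inflammatory actions of glucocorticoids. It stood at 0.10 (adjusted p = 0.798, 95% interval -0.17 to 0.36, SE 0.14) in the authors' deposited table, or 0.886-fold to 1.29-fold. Zbtb16 (ENSMUSG00000066687, chromosome 9, 48654297 to 48836222, GRCm38, minus strand) encodes PLZF, a zinc finger repressor that is strongly induced by glucocorticoids in many cells. The authors' deposited table gave it -0.03 (adjusted p = 0.963, 95% interval -0.43 to 0.37, SE 0.20), the widest SE of the 7, and a change of 1.47-fold would have been needed to pass. Of 10 tested relatives of the 2 genes, all without a predicted segment, none passed, beside 2.79% higher and 1.42% lower in that class. In DESeq2, 2 of the 10 were above 0 at an unadjusted p under 0.05. These were Tsc22d4 at 0.44 (adjusted p = 0.0516, SE 0.16) and Zbtb7b at 0.60 (adjusted p = 0.0855, SE 0.24) in the authors' deposited table. Tsc22d4 gained a call within class (0.50, adjusted p = 0.0383) and also with a minimum mean of 100 (adjusted p = 0.0429) or with all values centred on one median (adjusted p = 0.0387).

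Cdkn1a (ENSMUSG00000023067, chromosome 17, 29090976 to 29100727, GRCm38, plus strand) encodes p21, an inhibitor of cyclin-dependent kinases that p53 and glucocorticoids both induce. It stood at -0.08 (adjusted p = 0.867, 95% interval -0.40 to 0.24, SE 0.16) in the authors' deposited table, or 0.757-fold to 1.18-fold. A gene on the other strand that has no symbol covers 7.68% of its exon bases and was not in the table. None of 13 tested genes of the p53 list passed, Trp53 itself included, with 0 genes at an unadjusted p under 0.05 in DESeq2 and a median of -0.08. Of the 13, 11 have no predicted segment, a class with 2.79% higher and 1.42% lower, so no call is not a result about the list. The 2 of the p53 list with the smallest p were Perp at 0.39 (SE 0.30) and Ccng1 at 0.15 (SE 0.16) in the authors' deposited table. None of the 5 CDK inhibitors tested beside it passed, and 1, Cdkn1c at 0.92 (adjusted p = 0.152, SE 0.42), had an unadjusted p under 0.05 in the authors' deposited DESeq2 table. Cdkn1b, which encodes p27, stood at 0.10 (SE 0.14) and Cdkn2d at -0.24 (SE 0.14) in the authors' deposited table.

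Among 24 tested receptor targets outside the 10 members, 6 rose and none fell, beside 11.8% higher and 2.01% lower over all tested genes. With so small a share lower in the whole table, finding none lower among 24 is not a result about them. The median was 0.18, and 9 were above 0 and none below 0 at an unadjusted p under 0.05. The share of all tested genes at that unadjusted threshold was not computed, so the 9 cannot be set against it. By the authors' deposited table the highest of the 6 were Mfsd2a, a lipid transporter of brain endothelium, at 2.08 (adjusted p = 0.00307, SE 0.57) and Mertk, a receptor for phagocytosis in glia, at 1.91 (adjusted p = 3.87e-05, SE 0.40). The lowest of the 6 were Tiparp at 0.97 (SE 0.19) and Glul, the glutamine synthetase gene of astrocytes, at 0.74 (SE 0.14) in the authors' deposited table. The remaining 2, named after their values were seen, were Fam107a at 1.35 (adjusted p = 3.53e-11, SE 0.18), which is enriched in astrocytes, and the transcription factor gene Cebpd at 1.25 (adjusted p = 0.0286, SE 0.43) in the authors' deposited table. Of these 24 genes 21 have no predicted segment, and 4 of the 21 rose. Over all tested coding genes without a segment 2.79% were higher, and this difference was not tested. Of the other 3 of the 24, Mfsd2a lost its call within class (1.49, adjusted p = 0.106) and Mertk kept it (1.32, adjusted p = 0.0185). Klf15, a transcription factor gene named after its values were seen, gained a call within class (0.59, adjusted p = 0.0491), against 0.53 (adjusted p = 0.0557) in the authors' deposited table.

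Per1 and Dusp1, which respond quickly to the hormone and to neuronal activity, did not pass. Per1, a clock gene with receptor elements of its own, stood at 0.36 (adjusted p = 0.0998, 95% interval 0.07 to 0.66, SE 0.15) in the authors' deposited table. Dusp1, a phosphatase that ends MAP kinase signalling, stood at 0.17 (adjusted p = 0.692, SE 0.18) in the authors' deposited table. None of 10 tested receptor coregulators passed, with 0 genes at an unadjusted p under 0.05 in DESeq2, and the smallest p values were those of Ep300 at 0.22 (SE 0.13) and Smarca4 at -0.12 (SE 0.13) in the authors' deposited table. Among 18 tested nuclear receptors of other hormones and ligands none passed either, again with 0 genes at an unadjusted p under 0.05 in DESeq2. Both lists hold only genes without a predicted segment, a class with 2.79% higher and 1.42% lower. No call is therefore not a result about either list. Rorb at 0.31 (SE 0.19) and Ppard at 0.22 (SE 0.14) had the smallest p values among these nuclear receptors in the authors' deposited table.

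**Figure D4:**
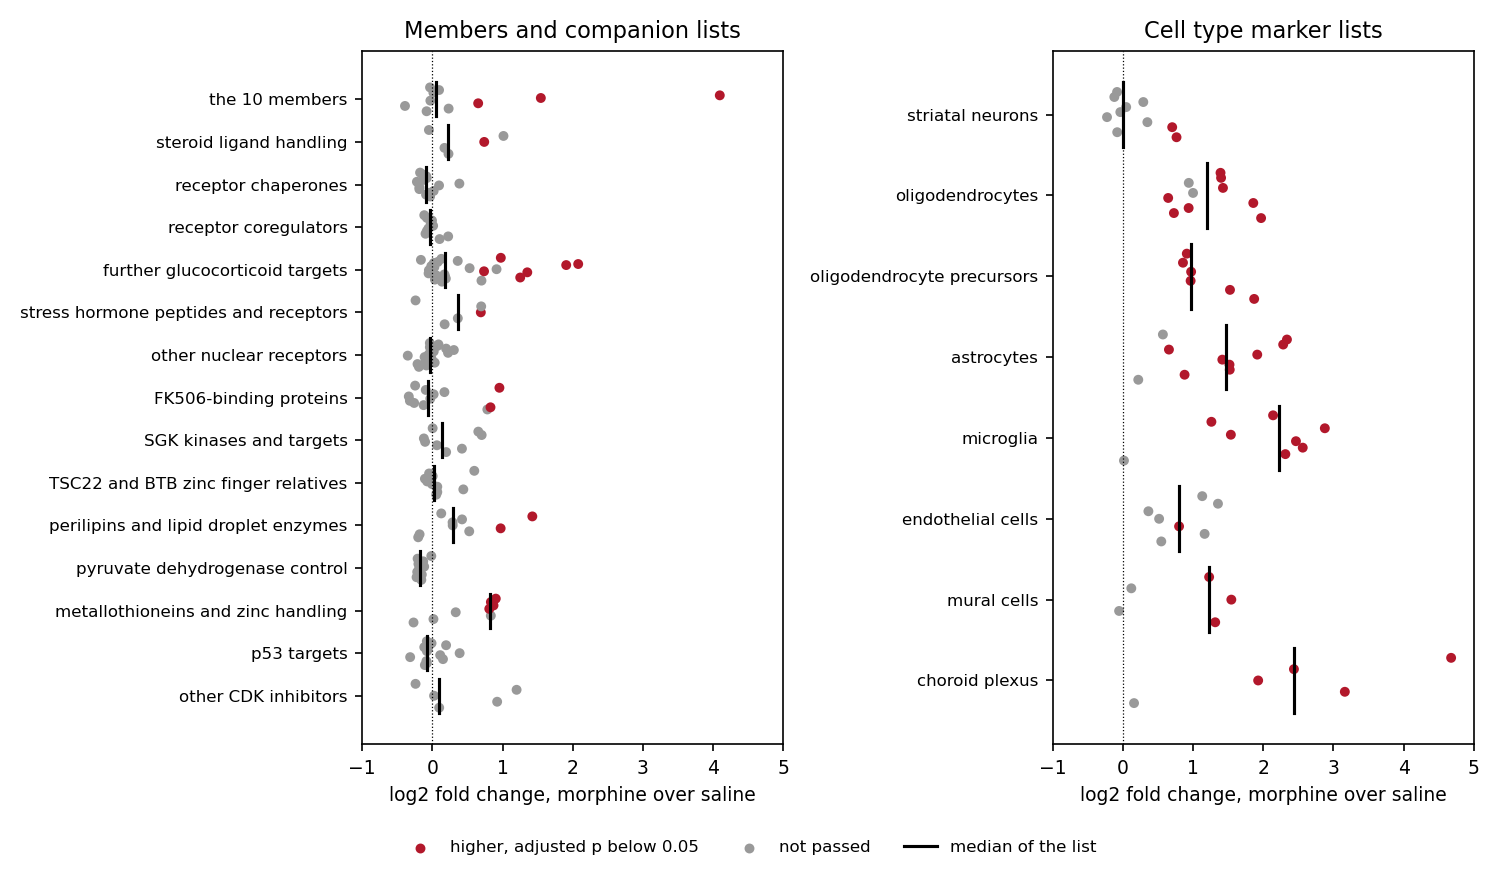
Log2 fold changes, morphine over saline, of the tested genes in each list, 1 point a gene, red at an adjusted p below 0.05 and grey otherwise, with a black bar at the median of each list. The 10 members have a median of 0.05 with Plin4 at 4.10, while the glial marker lists in the right panel, from oligodendrocytes to microglia, have medians from 0.97 to 2.23.

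Most markers of glia and choroid plexus were higher after morphine. Plin4, Pdk4 and Mt2 were higher too, while the other 7 members did not pass. The marker lists were chosen with earlier results of these data known, so their counts are a description only. The striatal neuron list was present at high levels, led by Ppp1r1b at a mean of 136520, and 2 of its 10 genes rose, Adcy5 at 0.76 (SE 0.12) and Drd1 at 0.70 (SE 0.13) in the authors' deposited table, with a median of 0.01. Oprm1, the gene that Cre is tied to, had a mean of 658 and a log2 fold change of 0.29 (adjusted p = 0.350, SE 0.18) in the authors' deposited table. Astrocyte markers rose in 8 of 10, with a median of 1.47, oligodendrocyte markers in 8 of 10, with all 10 values between 0.65 and 1.97, precursor markers in 6 of 6, with a median of 0.97, and microglial markers in 7 of 8, with a median of 2.23. Choroid plexus markers rose in 4 of 5 (median 2.44), mural cell markers in 3 of 5 (median 1.23) and endothelial markers in 1 of 7 (median 0.80). None of the marker lists held a gene that fell. Over all tested genes 11.8% were higher and 2.01% lower, so finding none lower is not a result about these lists. Within class, the calls numbered 6 for astrocytes, 7 for oligodendrocytes, 3 for precursors, 5 for microglia and 4 for choroid plexus. No mural, endothelial or striatal neuron marker kept a call. With a minimum mean of 100, the calls numbered 7 for astrocytes, 8 for oligodendrocytes, 6 for precursors and 2 for microglia. They numbered 2 for choroid plexus, 1 for mural cells, 1 for endothelium and 2 for striatal neurons. The share of all genes called was computed neither within class nor with that minimum mean. Of the 12 tested glial markers that, like the members, have no predicted segment, 8 rose and none fell, with a median of 0.90. Among all tested coding genes without a segment, 2.79% were higher and 1.42% lower.

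The marker lists differed in their own levels. Over the tested genes of each list, the authors' deposited means summed to 32828 for astrocytes, 24779 for oligodendrocytes, 1544 for precursors and 871 for microglia. They summed to 2791 for choroid plexus, 911 for mural cells, 466 for endothelium and 437955 for striatal neurons. Tmem119 and C1qc of microglia, Kcnj8 of mural cells, and Kcnj13 and Aqp1 of choroid plexus have no row in the table. By the authors' deposited table the highest and lowest called astrocyte markers were Slc7a10 at 2.34 (SE 0.64), Slc1a3 at 2.28 (SE 0.22), Aldoc at 0.88 (SE 0.17) and Slc1a2 at 0.66 (SE 0.17). The highest called microglial markers were Cx3cr1 at 2.88 (SE 0.40) and C1qb at 2.56 (SE 0.72) by the authors' deposited table, at means of 89.2 and 23.5. Called oligodendrocyte markers ran from Cldn11 at 1.97 (SE 0.19) and Mag at 1.86 (SE 0.21) to Cnp at 0.73 (SE 0.13) and Mbp at 0.65 (SE 0.14) in the authors' deposited table. The part of these cells in the values of Plin4, Pdk4 and Mt2 was not tested.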

How the data were processed

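RNA bound to GFP-L10a ribosomes was purified from mouse striatum, 3 morphine and 3 saline libraries, and grouped by sample title. RNA integrity numbers were above 8 and libraries came from the NEBNext Ultra II kit, per the labels' protocols. STAR 2.6.1d, DESeq2 1.20.0, GRCm38 and mm10 are named in the submitters' processing notes, while the read counter, strand setting, model and filters are not stated there. The deposited mean is a signal, counts divided by size factors. The authors' deposited fold changes and SEs are log2 values, their statistic is a score (fold change over SE), and their p-values come from a two-sided Wald test, adjusted by Benjamini-Hochberg. No per-library value or depth was used. Per the labels, nothing says that library numbers mark a shared litter or day.

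No model was refitted. The adjusted p-values over 17279 genes were recomputed and differed from the deposited ones by at most 2.11e-15. The other 1453 genes have none. Identifiers were matched to GENCODE M21 on GRCm38, which placed all 18732. A segment was 19 residues of mean Kyte-Doolittle hydropathy of at least 1.9, or 12 of the first 40 residues of at least 2.2, on the longest coding sequence. Proteins with a segment within their last 50 residues alone, mitochondrial families and genes without a usable coding sequence were unclassed. Members, 14 companion lists and 8 marker lists were chosen with earlier results of these data known. The rule for named genes took all members, a fixed set (Hsp90aa1, Hsp90ab1, Fkbp4, Nr3c2, Per1, Dusp1, Mt3, Pdk1, Pdk2, Plin2 and Cdkn1b) and, per list, the 2 highest and 2 lowest called genes or the 2 with the smallest p. Hsd11b1, Mtf1, Oprm1 and Ppp1r1b, and genes that overlap or lie above a member, were added after their values were seen, and not every marker the rule took is printed. No gene was sought for likeness to a member, as the table is 1 comparison. Alternatives were adjustment over all genes, a mean of at least 100, centring on the median or within protein class, and thresholds of 0.1 and 0.01. The adjustment, the centring and a count of calls were tested on simulated or known values. The motif search, the protein classes, the overlaps and the levels per kilobase were not tested in this way. Scripts ran under Python 3.11.15 with Biopython 1.88, matplotlib 3.10.9, scipy 1.17.1 and pandas 2.3.3.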

Additional observations from a re-analysis of the deposited data

How the results depend on the processing

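Of the 10 members 3 were called as deposited, and 3 also when all genes with a p were adjusted together, after either centring and at a threshold of 0.1. With genes of a mean of at least 100, the count of members called was 1 (1 higher), since Plin4 and Pdk4 fall under that mean and are not tested there. At a threshold of 0.01 it was also 1 (1 higher), Plin4. Centring within protein class turned the sign of Zbtb16 to 0.028 (adjusted p = 0.982) and of Nr3c1 to 0.033 (adjusted p = 0.969), neither called in any setting, because -0.06 is subtracted. The other 36 values of single members over these settings kept their direction and their side of the threshold. The count of companion genes called, 16 as deposited, was 8 with that centring, in which the 0.58 of genes with a segment is subtracted. Cebpd, Fam107a, Glul, Mertk, Plin3 and Tiparp kept their calls there, the others of the 16 lost theirs, and Klf15 and Tsc22d4 were called in addition. Both were also called with a minimum mean of 100 and with centring on the median. With no values per library, leaving one out was not run. No paired analysis was possible because the table has no columns of single libraries.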

Other observations

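Of 150 tested companion genes outside the marker lists 16, or 10.7%, rose and none fell, beside 11.8% higher and 2.01% lower over all tested genes. These shares rest on unlike mixtures of protein class. By class, 11 of 23 companion genes with a predicted segment rose, and 5 of 126 without one, beside 2.79% higher in the latter class. The share higher among all genes with a segment was not computed. The median log2 fold change of the companion genes was 0.02. In the zinc list, 4 of 8 tested genes rose in the authors' deposited table, all of them transporters, and none fell. The other 4, Mt3, Mtf1, Slc30a1 and Slc30a10, did not pass. Of the 8 genes 6 have a predicted segment. Slc39a14 stood at 0.90 (SE 0.17) and Slc30a4 at 0.87 (SE 0.17), while Slc39a10 stood at 0.83 (SE 0.15) and Slc30a3, the zinc transporter of synaptic vesicles, at 0.81 (SE 0.20) in the authors' deposited table. All 4 have a predicted segment, and the call of each was lost when values were centred within protein class (0 genes called in that list). Of 5 tested stress hormone peptides and receptors, Crhr1, the main receptor of corticotropin-releasing hormone, rose by 0.69 (adjusted p = 0.0110, SE 0.21) in the authors' deposited table, and that call too was lost with the centring.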
